A study of Mus musculus with 2 samples.

Results

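The genes described here are 10 genes used to recognise mast cells, grouped around the stem cell factor receptor *Kit* and the histidine decarboxylase *Hdc*. They were chosen by gene name from the annotation of the array, with the signals and ratios of these arrays already known, so their values are a description and carry no test. The 10 genes were read by 18 of 45281 probes, and they are 10 of 19057 genes with a probe naming 1 gene. The tested RNA came from females homozygous for the leptin receptor knock-in Y123F (HOM), in which phenylalanine stands in place of 3 tyrosines of the long receptor LepRb in every cell of the body. The other RNA came from wild-type (WT) females of the same litters, both on a C57BL/6 background and 12 weeks old. Each genotype was hybridised once, as 1 RNA pool labelled as ovaries on 1 Illumina mouse array. The study's methods give 3 mice per pool and its supplement gives 6. A HOM/WT ratio therefore compares 2 pools, with no spread between animals and no p-value. In RNA of a whole organ, fewer cells of a type and less of a transcript per cell cannot be told apart.

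Mast cells are tissue-resident granulated cells of the blood lineage. They need the receptor Kit and its ligand to survive, bind IgE through a high-affinity receptor, and store histamine together with large amounts of chymases, tryptases and a carboxypeptidase. Kit is also carried by oocytes, theca cells, melanocytes, blood progenitors and the interstitial cells of Cajal, the pacemakers of smooth muscle organs. *Hdc*, which makes histamine from histidine, is active in basophils and stomach endocrine cells as well, and in the mouse it is known from the epithelium of the pregnant uterus. *Gata2* encodes a zinc finger transcription factor that mast cells need, and it also acts in endothelium, in blood progenitors and beside the progesterone receptor in uterus.

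A probe was called detected at a detection p-value below 0.01, which the scanner software derived from negative control beads of the same array. By this rule 34.4% of probes were detected on the HOM array and 32.9% on the WT array, and the lowest signal called detected was 15.9 on the HOM array and 15.1 on the WT array. Signals are given as deposited, and the log2 HOM/WT values after background correction and quantile normalization. Signals of different probes depend on the probe and were not set against each other as transcript levels. Log2 HOM/WT varied between detected probes of the same gene with a pooled SD of 0.33 over 3225 genes, and among 1634 detected genes whose brighter signal lay between 15 and 30 its SD was 0.35. The defining genes of the labelled organ were mostly near background. Of 12 measured oocyte genes 2 were detected on the HOM array and 2 on the WT array, and of 6 granulosa cell genes 1 was detected, on both arrays. Of 16 uterine epithelial genes 13 were detected on each array, and of 8 smooth muscle genes 7 were detected on both. Over all 19057 genes with a probe naming 1 gene, 9390 were detected on the HOM array, 9078 on the WT array and 45.4% on both.

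The bases before the transcription start are shown for 5 of the genes, because they set the *Kit* promoter beside promoters of genes that mast cells use, and because the factor encoded by *Gata2* binds the letters GATA. Each window holds the 250 bases before a RefSeq start site (GRCm38.p6), written 5′ to 3′ on the strand of the gene, with GATA or its reverse complement TATC in capitals. The windows lie at chr5:75574737-75574986 (plus strand) for *Kit*, chr2:126618679-126618928 (minus) for *Hdc*, chr3:20242182-20242431 (minus) for *Cpa3*, chr14:56062311-56062560 (minus) for *Mcpt4* and chr19:11623720-11623969 (minus) for *Ms4a2*.
Kit: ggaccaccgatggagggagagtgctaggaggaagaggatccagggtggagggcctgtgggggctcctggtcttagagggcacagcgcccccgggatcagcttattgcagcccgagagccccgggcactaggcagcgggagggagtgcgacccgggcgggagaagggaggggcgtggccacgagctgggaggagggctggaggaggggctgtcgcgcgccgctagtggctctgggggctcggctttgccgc
Hdc: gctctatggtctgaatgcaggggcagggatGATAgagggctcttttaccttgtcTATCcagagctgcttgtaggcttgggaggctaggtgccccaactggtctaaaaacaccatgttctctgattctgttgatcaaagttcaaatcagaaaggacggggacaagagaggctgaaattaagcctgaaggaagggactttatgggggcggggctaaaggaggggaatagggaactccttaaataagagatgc
Cpa3: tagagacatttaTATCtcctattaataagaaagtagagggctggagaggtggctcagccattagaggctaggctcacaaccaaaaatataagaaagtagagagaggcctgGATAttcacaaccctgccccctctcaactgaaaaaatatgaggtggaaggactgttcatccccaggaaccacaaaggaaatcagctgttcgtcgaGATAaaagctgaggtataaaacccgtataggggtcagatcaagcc
Mcpt4: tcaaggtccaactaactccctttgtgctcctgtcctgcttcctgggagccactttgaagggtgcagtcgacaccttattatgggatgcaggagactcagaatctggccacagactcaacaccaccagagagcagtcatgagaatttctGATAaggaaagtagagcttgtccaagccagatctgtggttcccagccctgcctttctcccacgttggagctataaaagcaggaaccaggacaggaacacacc
Ms4a2: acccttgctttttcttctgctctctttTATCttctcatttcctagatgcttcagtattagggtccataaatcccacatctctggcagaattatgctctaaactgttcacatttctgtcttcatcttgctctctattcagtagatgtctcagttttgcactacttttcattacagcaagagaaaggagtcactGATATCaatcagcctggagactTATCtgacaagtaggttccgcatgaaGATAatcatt

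The *Kit* window held no GATA or TATC and had 70.8% G and C, and the windows of both annotated *Gata2* start sites held none either. The *Hdc* window held 2, beginning 220 and 196 bases before the start, the *Cpa3* window 3, the nearest at 45 bases, and the *Mcpt4* window 1, at 102 bases. The *Ms4a2* window held 5, of which a pair overlaps, the nearest at 10 bases. The windows of *Cma1* and *Fcer1a*, not shown, held 3 and 2. Thus 6 of 8 members with a window had at least 1 match. *Kit* and *Gata2* each had 2 windows, all without a match, and the other members with a window had 1 each. Counted by window, 6 of 10 member windows had a match, against 53.6% of all 32851 windows. A stricter form on either strand asks for A or T before GATA and A or G after it. This form was found in the same 6 of 10 member windows, against 26.5% of all windows. A match is a run of letters and was not tested as a binding site. *Tpsb2* and *Tpsab1* had no entry.

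*Kit* was detected on both arrays by 1 of its 3 probes. This probe, annotated to the RefSeq transcript, had a signal of 274 on the HOM array and 163 on the WT array, a log2 HOM/WT of 0.43. Both arrays were well above their dimmest detected probe, and the ratio was short of 2-fold. The other probes, annotated to cDNA clones, had signals of 13.2 and 9.84 on the HOM array and 3.55 and 2.76 on the WT array, and neither was detected on either array. The ratio of *Kit* was the steadiest among the members with a value above 0.3. With the median over all detected genes taken off, it was 0.39 with quantile normalization and 0.41 with median scaling, without background correction and in the authors' normalized table, and 0.34 with an offset of 50. The study itself lists *Kit* as higher in HOM, above 2-fold on its arrays and by quantitative PCR. Why the deposited signals give a smaller ratio was not tested. *Kitl*, the ligand that granulosa cells, stroma and epithelia make, was not detected, with signals of 7.68 on the HOM array and 3.94 on the WT array.

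Of 24 measured genes of *Kitl* and the signaling proteins downstream of Kit, 11 were detected, all on both arrays. Of these 4 had a log2 HOM/WT above 0, against 53.8% of all detected genes, or 69.4% after median scaling. Most of the 11 were above 0 after median scaling, so the count depended on the scaling. None was past 2-fold. Their median was -0.11, and 0.13 after median scaling, beside 0.04 and 0.22 over all detected genes. The largest values were those of phospholipase *Plcg2* (0.70), the kinase subunit *Pik3cd* (0.51) and the phosphatase *Ptpn6* (0.47), all proteins of blood cells, and of the widely expressed *Stat3* (-0.32, and -0.08 after median scaling). *Plcg2* had a signal of 140 on the HOM array and 65.5 on the WT array, and *Pik3cd* had 53.0 on the HOM array and 26.6 on the WT array.

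*Hdc* was detected on both arrays by both of its probes. The brighter had a signal of 7801 on the HOM array and 6176 on the WT array, and the other 1303 on the HOM array and 1009.6 on the WT array. Their log2 HOM/WT values were 0.13 and 0.04. Both were thus far above background on both arrays and differed between the genotypes by less than the SD between probes of a gene. Taken relative to all detected genes, the brighter probe lay between 0.05 and 0.10 in every way of processing tried.

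The genes that receive, carry or break down histamine were mostly near background. Of 10 measured, 2 were detected. Monoamine oxidase B, *Maob*, which oxidises methylhistamine, had a signal of 1188 on the HOM array and 981 on the WT array (log2 HOM/WT -0.06, and 0.21 after median scaling). The diamine oxidase *Aoc1*, which breaks down histamine outside cells, was detected on the HOM array only. It had a signal of 26.4 on the HOM array and 11.7 on the WT array. Its lower bound of 1.23-fold for HOM over WT gives no clear direction. The histamine receptors *Hrh1*, *Hrh2*, *Hrh3* and *Hrh4* and the methyltransferase *Hnmt* were not detected. Nor was *Slc18a2*, the vesicle transporter that loads histamine into mast cell granules, which had a signal of 14.5 on the HOM array and -2.32 on the WT array.

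*Gata2* was detected on both arrays by its 1 probe, with a signal of 1949 on the HOM array and 1789 on the WT array. After quantile normalization its log2 HOM/WT was -0.19. Its sign depended on the scaling, with 0.06 under median scaling and 0.12 where the arrays were not scaled. Relative to all detected genes it lay below 0 throughout, at -0.23 with quantile normalization and -0.16 with median scaling. Among the other Gata factors, partners and progesterone receptor genes listed, 8 of 11 measured were detected, and *Gata6* was past 2-fold, with 48.9 on the HOM array and 117 on the WT array (log2 HOM/WT -1.28). *Sox17* (-0.77), *Lmo2* (-0.71) and the cofactor *Zfpm2* (-0.59) followed. The progesterone receptor *Pgr* had a signal of 40.7 on the HOM array and 38.1 on the WT array, and *Gata1*, the other Gata factor of mast cells, was not detected, with 5.56 on the HOM array and 10.2 on the WT array. The median of the list was -0.36, and -0.23 after median scaling.

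**Figure D1:**
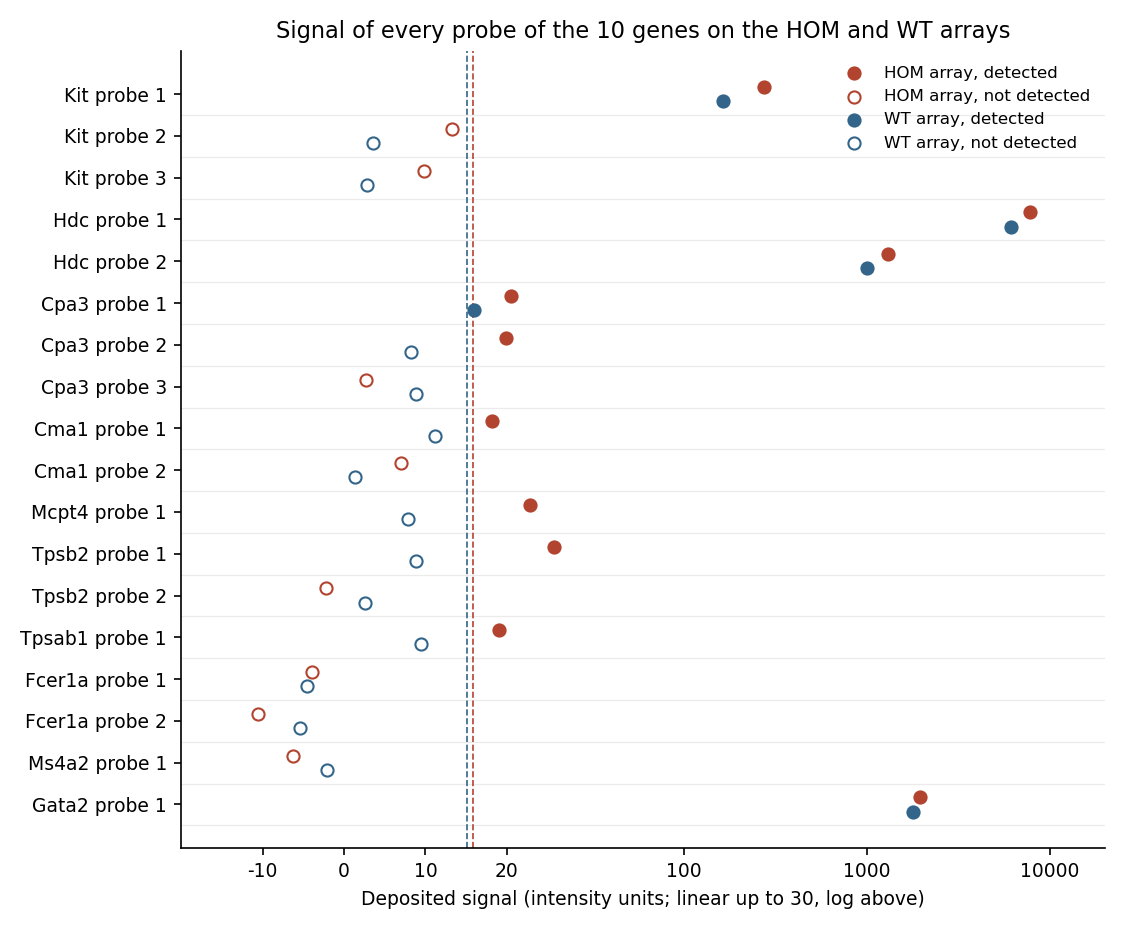
Deposited signal of each of the 18 probes (rows) on the HOM array (red) and the WT array (blue), on an axis that is linear up to 30 and logarithmic above, with filled points for detected probes and dashed lines at the dimmest detected signal of each array. The *Hdc* and *Gata2* probes and 1 *Kit* probe lie far to the right of the lines on both arrays, and every probe of the proteases and IgE receptor subunits lies at a signal below 26.

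The secreted proteases that define mast cells were at or near background. *Cpa3*, the granule carboxypeptidase, was the member of this class detected on both arrays. Its brightest probe had a signal of 20.6 on the HOM array and 15.96 on the WT array, at detection p-values of 0.0011 and 0.0075, and a log2 HOM/WT of 0.06. A second *Cpa3* probe was detected on the HOM array only, with 19.9 on the HOM array and 8.19 on the WT array, and the third on neither, with 2.71 on the HOM array and 8.88 on the WT array. The brightest probe lay within 0.1 of the median of all detected genes, on either side of it depending on the scaling.

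The chymases *Cma1* and *Mcpt4*, which cleave after aromatic residues, were detected on the HOM array only. *Cma1* had a signal of 18.2 on the HOM array and 11.2 on the WT array, and its second probe, not detected, had 7.03 on the HOM array and 1.33 on the WT array. *Mcpt4* had 22.8 on the HOM array and 7.82 on the WT array. As lower bounds, the HOM signal exceeded the WT signal by 1.01-fold for *Cma1* and by 1.14-fold for *Mcpt4*.

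The tryptases *Tpsb2* and *Tpsab1*, which cleave after basic residues, were also detected on the HOM array only. *Tpsb2* had a signal of 25.8 on the HOM array and 8.90 on the WT array with a lower bound of 1.22-fold for HOM over WT, while its second probe was detected on neither, with -2.26 on the HOM array and 2.56 on the WT array. *Tpsab1* had 19.0 on the HOM array and 9.41 on the WT array, with a lower bound of 1.03-fold. The bounds of all 4 chymase and tryptase genes lay close to 1 and give no clear direction. RefSeq annotates *Tpsab1* as a transcribed pseudogene in C57BL/6J. The substrain of these mice is not given in the sources used here. Whether they carry that form of the gene was not tested.

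These proteases lie in 2 gene clusters. Of 15 protease genes within 500 kb of *Cma1* and *Mcpt4* on chromosome 14, all measured, 5 were detected. They were *Cma1* and *Mcpt4*, the chymase *Cma2*, with 43.7 on the HOM array and 16.3 on the WT array (log2 HOM/WT 0.72), and the granzymes *Gzmd* (54.9 on the HOM array and 72.4 on the WT array) and *Gzmg* (7.05 on the HOM array and 19.9 on the WT array). The mucosal chymases *Mcpt1* and *Mcpt2* were not detected. Of 5 measured protease genes near *Tpsb2* and *Tpsab1* on chromosome 17, 4 were detected. Beside the members they were *Prss28* and *Prss29*, the implantation serine proteases of uterine glands. *Prss29* had a signal of 138 on the HOM array and 36.3 on the WT array (log2 HOM/WT 1.33), past 2-fold, and *Prss28* was detected on the HOM array only, with 27.5 on the HOM array and 9.34 on the WT array. Whether probes of these related genes bind each other's transcripts was not tested, and the clusters were looked at after the values had been seen.

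The subunits that make the high-affinity IgE receptor particular to mast cells and basophils were at background. *Fcer1a*, the IgE-binding chain, had a signal of -4.00 on the HOM array and -4.62 on the WT array on its brighter probe and -10.6 on the HOM array and -5.47 on the WT array on the other. *Ms4a2*, the signal-amplifying beta chain whose promoter window held the most GATA letters among those shown, had -6.27 on the HOM array and -2.16 on the WT array. Neither gene was detected, at detection p-values of 0.70 and 0.77 for *Fcer1a* and 0.80 and 0.63 for *Ms4a2* on the HOM and WT arrays, and no fold is given. *Fcer1g*, the gamma chain, which macrophages and other blood cells share, had a signal of 471 on the HOM array and 195 on the WT array (log2 HOM/WT 0.91, and 1.14 after median scaling). Of 13 measured genes of signaling from this receptor 6 were detected, 5 on both arrays and *Lat* on the HOM array only. All 6 had a log2 HOM/WT above 0, as had 53.8% of all detected genes, or 69.4% after median scaling. *Lat* could be counted as detected only by being brighter on the HOM array, so its sign is no result. After quantile normalization none was past 2-fold, and their median was 0.68, beside 0.04 over all detected genes. With detection at a p-value below 0.05 the median of the list was 0.45. *Plcg2*, already named, *Vav1* (0.69) and the adaptor *Lat2* (0.67) came next after *Fcer1g*, while *Syk*, the kinase the receptor recruits, was not detected.

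Set side by side, 4 members were detected on both arrays, 4 on the HOM array only and none on the WT array only. Over all genes with a probe, 45.4% were detected on both arrays, 3.88% on the HOM array only and 2.24% on the WT array only. The members detected on the HOM array only were the chymases and tryptases, each with a WT signal between 7.82 and 11.2. At a detection p-value below 0.05, *Cma1* was detected on the WT array as well. The 7 proteases and IgE receptor subunits had a summed signal of 96.2 on the HOM array and 46.5 on the WT array, with 5 and 1 of them detected. Most signals in these sums were not above background, on the WT array in particular, so the sums give no direction. No member was past 2-fold, while among all detected genes 0.418% were 2-fold or more higher in HOM and 1.49% were 2-fold or more lower. The 4 members detected on the HOM array only could be counted as detected only by being brighter there, so their sign is no result. Of the 4 detected on both arrays 3 had a log2 HOM/WT above 0, as had 53.8% of all detected genes, and their median was 0.09, beside 0.04 over all detected genes.

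**Figure D2:**
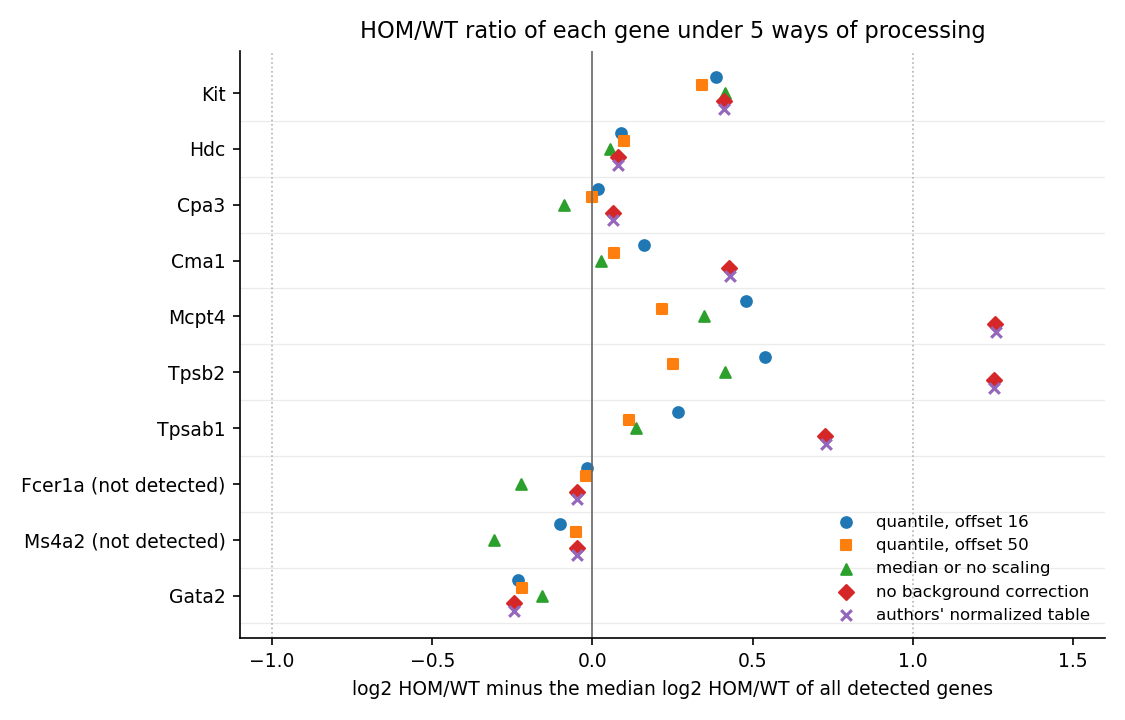
Log2 HOM/WT of the brightest probe of each gene (rows) minus the median over all detected genes, with 1 symbol for each way of processing and dotted lines at -1 and 1. *Kit*, *Hdc* and *Gata2* kept their places within 0.1, while *Mcpt4* and *Tpsb2*, detected on the HOM array only, passed 1 without background correction and in the authors' normalized table.

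Of 22 measured further mast cell genes, 9 were detected on the HOM array and 8 on the WT array. None was past 2-fold, and their median log2 HOM/WT was 0.28, and 0.50 after median scaling. Apart from *Cma2*, those detected are known from many other cells, such as the granule proteoglycan *Srgn* (138 on the HOM array and 85.9 on the WT array, log2 HOM/WT 0.33) and *Cd63*, a tetraspanin of lysosomes (5052 on the HOM array and 3796 on the WT array). The mast cell receptors *Mrgprb1* (11.4 on the HOM array and -0.49 on the WT array) and *Mrgprb2* (13.3 on the HOM array and 6.91 on the WT array) were not detected. Nor were the prostaglandin D synthase *Hpgds*, *Mcpt9*, *Ctsg* or *Tph1*. Of 7 measured basophil genes 2 were detected, *Il3ra* (41.1 on the HOM array and 33.5 on the WT array) and *Cd200r3*, on the HOM array only (17.4 on the HOM array and 11.7 on the WT array). The basophil proteases *Mcpt8* and *Prss34* were not detected, with 1.73 and 7.57 on the HOM array and 7.01 and 8.62 on the WT array.

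Other cells that carry Kit were represented unequally. Of 8 measured genes of interstitial cells of Cajal, 5 were detected on each array. Detected on neither were *Gpr20* (4.51 on the HOM array and 12.2 on the WT array) and *Prkcq* (4.68 on the HOM array and -0.82 on the WT array). The chloride channel *Ano1*, which marks these cells, had a signal of 80.0 on the HOM array and 93.1 on the WT array (log2 HOM/WT -0.42). *Etv1*, a transcription factor they need, was detected on the WT array only, with 7.53 on the HOM array and 19.97 on the WT array. Its lower bound of 1.23-fold for WT over HOM gives no clear direction. *Gja1*, a gap junction protein shared with smooth muscle, had 1363 on the HOM array and 2054 on the WT array (-0.91), and the calcium channel *Cacna1h* had 195 on the HOM array and 123 on the WT array (0.33). The median of the list was -0.35, and -0.16 after median scaling.

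Of the oocyte genes, the growth factor *Gdf9* was detected on both arrays, with 34.7 on the HOM array and 21.3 on the WT array (log2 HOM/WT 0.28), and *Bmp15* was detected on the HOM array only (17.9 on the HOM array and 7.91 on the WT array). *Zp2* was detected on the WT array only (13.7 on the HOM array and 15.2 on the WT array), and the other 9 oocyte genes, *Figla*, *Nobox* and *Dppa3* among them, on neither. Of 7 theca and interstitial cell genes 3 were detected, with a median of 0.42. These were *Ptch1* (0.42), *Col1a1* (0.42) and *Insl3* (0.23), whereas *Cyp17a1* and *Star* were not detected. The 1 granulosa cell gene detected was *Inha*, with 49.3 on the HOM array and 21.6 on the WT array (0.62). Of 7 melanocyte genes *Tyrp1* was detected on the HOM array only (18.6 on the HOM array and 7.38 on the WT array) and *Pmel* on the WT array only (10.9 on the HOM array and 16.1 on the WT array), while *Tyr*, *Dct* and *Mlana* were not detected. Of 7 blood progenitor genes 5 were detected, with a median of -0.28. Among them *Lmo2* was named above, and *Meis1* had -0.56 and *Hoxa9* 0.37. *Tal1* was detected on the HOM array only, with a lower bound of 1.38-fold for HOM over WT, so its sign is no result. *Flt3* was not detected.

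**Figure D3:**
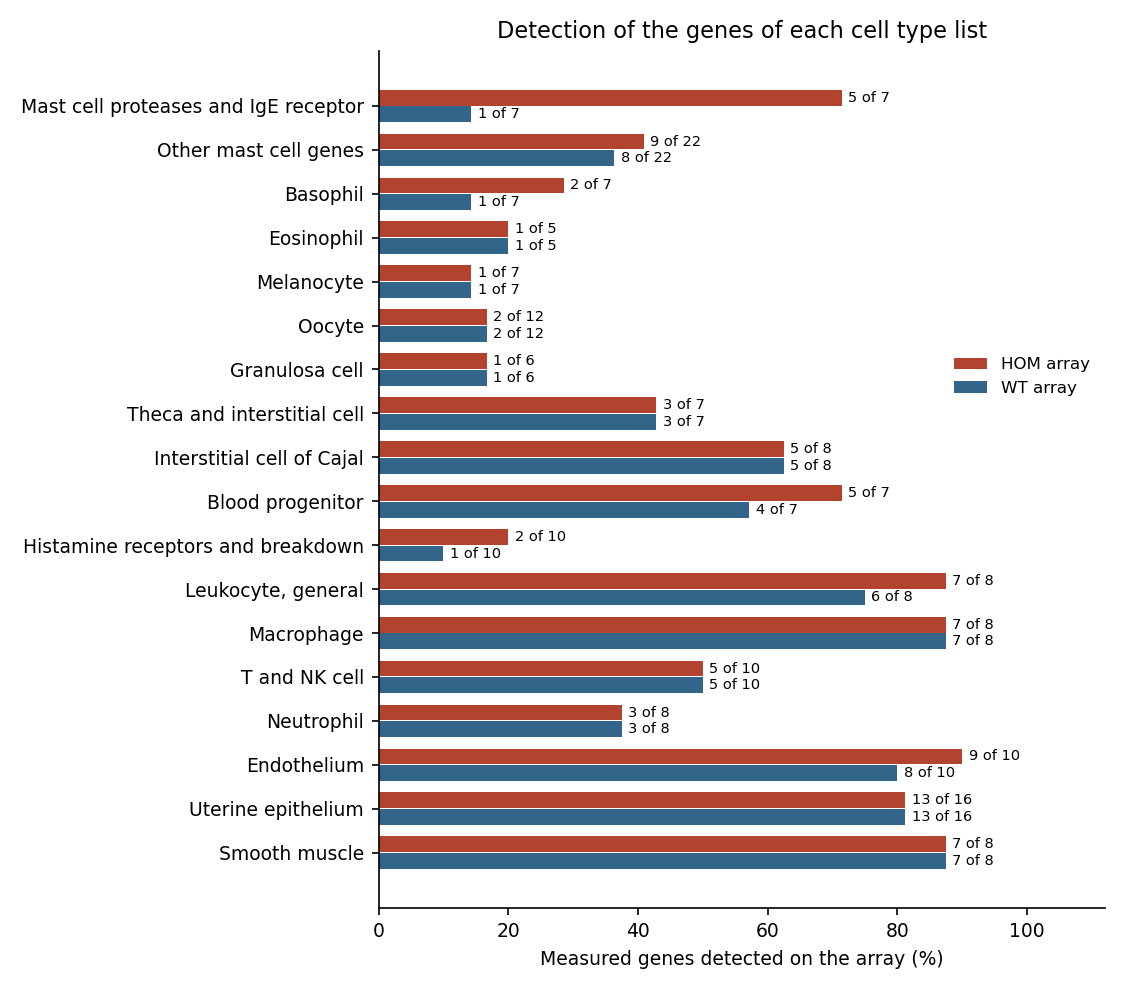
Share of the measured genes of each list that were detected (horizontal axis, %), with the HOM array (red) above the WT array (blue) and the counts beside the bars. Of the 7 mast cell proteases and IgE receptor subunits, 5 were detected on the HOM array and 1 on the WT array, and 13 of 16 uterine epithelial genes were detected on each.

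Lists of tissues that can carry *Hdc* or *Gata2* were mostly detected. Among the uterine epithelial genes, keratin *Krt8* had a signal of 1088 on the HOM array and 887 on the WT array, and *Foxa2*, a factor of glands, had 24.3 on the HOM array and 22.3 on the WT array. The epithelial gene *Epcam* was not detected, with 2.67 on the HOM array and 8.57 on the WT array. Of 14 detected the list held 3 genes past 2-fold, all higher on the HOM array, against 0.418% of all detected genes 2-fold or more higher. They were lactotransferrin *Ltf* (1544 on the HOM array and 443 on the WT array, log2 HOM/WT 1.45), *Prss29*, and the cytokine *Lif* (77.4 on the HOM array and 18.0 on the WT array, 1.29). *Sox17* (-0.77), *Wnt7a* (-0.59) and *Cdh1* (-0.48) were at the other end. Of the 14 detected 8 were above 0, against 53.8% of all detected genes, or 69.4% after median scaling. The 8 include *Prss28*, detected on the HOM array only, whose sign is no result. The median of the list was 0.08, and 0.30 after median scaling. *Hdc* had 0.13 and 0.04 on its probes, beside a median of 0.04 over all detected genes. Of 10 endothelial genes 9 were detected, and their median was -0.11, or 0.12 after median scaling. *Flt1* (-0.60), *Emcn* (-0.44), *Tek* (-0.37) and *Pecam1* (0.34) had the largest values. The median of the smooth muscle genes was -0.05, and 0.10 after median scaling, with *Smtn* at 0.50, *Actg2* at -0.22 and *Tagln* at -0.14 (0.09 after median scaling). Which cells gave the *Kit*, *Hdc* and *Gata2* signals was not tested and cannot be read from 2 arrays of whole-organ RNA.

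Genes of other blood cells were measured beside the members. Above 0 were 6 of 7 detected general leukocyte genes, 5 of 7 macrophage genes and 3 of 5 T and NK cell genes, against 53.8% of all detected genes, or 69.4% after median scaling. The 6 general leukocyte genes include *Itgb2*, detected on the HOM array only (16.3 on the HOM array and 12.6 on the WT array), whose sign is no result. The median log2 HOM/WT was 0.39 over 7 detected of 8 general leukocyte genes, 0.48 over 7 of 8 macrophage genes and 0.59 over 5 of 10 T and NK cell genes, beside 0.04 over all detected genes. It was 0.28 for the macrophage list with the mean over detected probes, and 0.21 for the T and NK cell list with detection at a p-value below 0.05. The general list had a summed signal of 2628 on the HOM array and 1410.1 on the WT array. *Laptm5* alone had 1423 on the HOM array and 703 on the WT array. These signals were not scaled between the arrays, so the sums give no direction. *Cd52* (537 on the HOM array and 223 on the WT array, 0.92), *Laptm5* (0.68) and *Cd53* (-0.61) show that the genes of the general list did not all run one way. In the macrophage list *C1qa* (0.69), *C1qb* (0.69) and *Aif1* (0.63) stood against *Mrc1* (-0.84). In the T and NK cell list *Cd3e* was past 2-fold (72.6 on the HOM array and 19.9 on the WT array, 1.13), *Nkg7* had 0.79, *Cd3g* 0.59 and the perforin gene *Prf1* -0.48. The eosinophil granule protein *Prg2*, the 1 detected of 5 eosinophil genes, had 74.3 on the HOM array and 25.3 on the WT array (0.94). Of 8 neutrophil genes 3 were detected, *Mpo* (0.40), *Prtn3* (0.03) and *S100a8* (-0.11), with a median of 0.03. The part of these cells in the member values was not tested.

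Of 11 measured genes listed as factors that feed or attract mast cells, 5 were detected and none was past 2-fold. The list also held *Nfkbiz*, which encodes a nuclear regulator and no secreted factor. The median was 0.22, but -0.10 over the genes detected on both arrays and -0.02 with detection at a p-value below 0.05, so the list had no settled direction. *Tgfb1* had 73.7 on the HOM array and 24.0 on the WT array (log2 HOM/WT 0.98, and 1.11 after median scaling). *Ccl5* was detected on the HOM array only (29.1 on the HOM array and 3.62 on the WT array). Its lower bound was 1.31-fold for HOM over WT, and its sign is no result. *Vegfa* had -0.42 and *Nfkbiz* -0.56. The mast cell cytokines *Il3*, *Il9* and *Il33* were not detected.

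**Figure D4:**
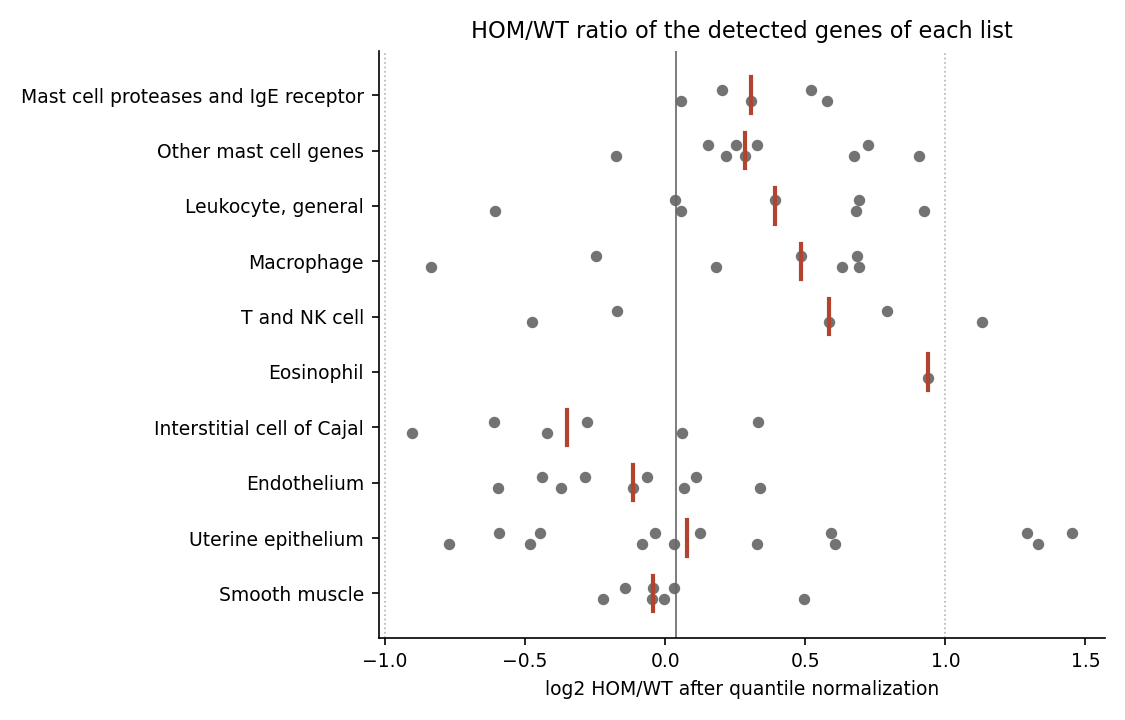
Log2 HOM/WT after quantile normalization of the detected genes (grey points) of 10 lists, with the median of each list as a red bar, the median of all detected genes (0.04) as a solid line and dotted lines at -1 and 1. Values of genes detected on 1 array only, 4 of the 5 mast cell proteases among them, are included as fitted and have only a bound. The medians of the macrophage list (0.48) and the T and NK cell list (0.59) lie to the right of the solid line, and that of the interstitial cells of Cajal (-0.35) to the left.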

How the data were processed

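RNA labelled as ovaries was measured in 1 pool of HOM and 1 pool of WT mice, each on 1 Illumina MouseWG-6 array. The authors deposited background-subtracted signal intensities, not normalized between the arrays, with a detection p-value per probe that the authors' software computed. The labels name GenomeStudio, the methods BeadStudio with robust multichip analysis, and versions are not given in the sources used here. A second intensity table deposited by the authors differed by at most 1.57 from quantile normalized signals. Of 45281 probes, 34885 named 1 gene, 18 several and 10378 were not listed, and the last 2 groups were left out.

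The signals were corrected with normexp, fitted on the detection p-values (limma 3.58.1, R 4.3.3), 16 was added, and the arrays were quantile normalized on the log2 scale. Adding 16 draws ratios of dim probes toward 1. The brightest probe represented a gene. Past 2-fold means an absolute log2 HOM/WT of 1 or more in a gene detected on either array, a rule of size with no test behind it. A probe detected on 1 array only has a bound. Its normalized value was divided by the lowest one called detected on the second array, or by its own value there if that was higher. The bound makes no allowance for the spread between probes, and its direction follows from which array detected the probe. With 1 array per genotype, a single array limits the precision, no test was made, and no likeness between gene patterns was computed. Named are the members with every probe, in each of 22 other lists up to 4 detected genes of largest absolute ratio, and genes that define a cell type. The members and lists were chosen with earlier results of these data known, and lists share some genes. Alternatives changed the offset, background correction, scaling, probe choice, detection rule and fold. Promoter windows and gene order came from RefSeq (GRCm38.p6).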

Additional observations from a re-analysis of the deposited data

How the results depend on the processing

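Relative to 0 members past 2-fold after quantile normalization, the count was 2 without background correction and 2 in the authors' normalized table, both times *Mcpt4* (log2 HOM/WT 1.31 in each) and *Tpsb2* (1.30 in each). These settings do not add 16 to the signals, and both genes had a WT signal below the dimmest detected probe. *Tpsab1* reached 0.77 without background correction and 0.78 in the authors' table. The count stayed 0 with an offset of 50, median scaling, no scaling, the mean over detected probes, detection at a p-value below 0.05 or on both arrays, and a fold of 1.5. Of 60 values of single members under alternatives, 54 moved by less than 0.33, the SD between probes of a gene, and the other 6 are those of *Mcpt4*, *Tpsb2* and *Tpsab1* just given. The median over detected members ranged between 0.09 (detection on both arrays) and 0.47 (authors' table), and the median of the factors that attract mast cells turned from 0.22 to -0.10 with detection on both arrays and -0.02 at a p-value below 0.05. Of 194 alternatives of counts and list medians, 185 stayed within their tolerance, among them the 8 members detected on the HOM array and, at a p-value below 0.05, 5 in place of 4 on the WT array. The 9 that moved include the median of the detected mast cell proteases. It was 0.31 after quantile normalization, 0.77 without background correction and 0.78 in the authors' table. Median scaling moved the median of all detected genes to 0.22 and no scaling to 0.28, against 0.04. Signals below about 16 could not be told from background, which limits the proteases and IgE receptor genes. No paired analysis was possible because each genotype has 1 array.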

Other observations

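Among the genes next to the chymase cluster, *Ltb4r1*, the high-affinity receptor for leukotriene B4 that draws mast cell precursors and other leukocytes, was detected on the HOM array only, with a signal of 43.5 on the HOM array and 7.02 on the WT array. The leukotriene enzymes of mast cells and other leukocytes were dim. *Alox5* had 30.4 on the HOM array and 18.9 on the WT array (0.25), and *Ltc4s* was detected on the HOM array only, with 17.7 on the HOM array and 10.4 on the WT array. *Ltb4r1* had a log2 HOM/WT of 1.15, past 2-fold, but was detected on the HOM array only, so its sign is no result. It was singled out after its value had been seen, among 26 detected of 50 measured genes within 500 kb of the chymase members.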
